A study of Mus musculus with 24 samples.

Results

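Cabozantinib (cabo) is a small-molecule inhibitor of several receptor tyrosine kinases, among them MET and the VEGF receptors, and 8 genes are described here whose RNA was low in bone tumors after cabo at day 14 and was back at or above the level of undosed tumors at the end of the study. They are Robo1, Rasgrp3, Kcne3, Mmp15, Ednrb, Mest, Klhl4 and Sema3f, 8 of the 55401 Ensembl genes in the count table. The 8 genes were selected on measured values, since their change with cabo differed between day 14 and the end of the study (EOS) in intratibial tumors, and the selection does not name a plasmid. In an edgeR fit over the 20 intratibial tumors, 17 of 21563 genes tested (0.0788%) had such a difference on the control plasmid at an adjusted p under 0.05, and the 8 genes are 8 of those 17. The members nearest to that limit were Sema3f, with a log2 difference of 2.77, and Mmp15, with 2.56. The first genes beyond it were Sbsn, at -3.67, and Hey1, at 3.29. All values from control-plasmid tumors below are therefore a description. Tumors given the IL-27 plasmid were part of that fit and may have entered the selection, so their p-values set each difference against the spread between tumors and are not independent evidence of the pattern. The subcutaneous tumors were not part of it. The other genes of the 17 were Flt4, Ephb1, Emcn, Dll4, Gm13304, Pcdh12, Tmem255a, 4930502E18Rik and Gimap6. Where these are named below, the same limits hold for their values.

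All tumors derive from TC2Ras, prostate adenocarcinoma cells of the mouse with an activated Ras gene, and were grown in male C57/BL6 mice 8 to 10 weeks old. Of 8 markers of epithelial tumor cells 7 passed the count filter (Krt5 did not), and Krt8 had 40.5 ± 11 CPM (counts scaled to a common library size by TMM, SD, n = 3) in control tumors of day 14. TC2Ras-Luc cells were placed in the tibiae, and every intratibial mouse received either an empty control vector or a vector coding for interleukin 27 (IL-27) in the tibialis anterior muscle by sonoporation, together with either cabo or the vehicle polyvinylpyrrolidone by oral gavage for 2 weeks. The groups were named control, cabo, IL-27 and, for both agents, IL-27+cabo, each with 3 tumors from day 14 and 2 tumors from EOS, the ethical endpoint, whose day is not given per mouse. A further 4 subcutaneous tumors of TC2Ras cells, taken a week after implantation and with no cabo in their labels, were 2 control and 2 IL-27 tumors given the same kinds of vector. Each intratibial tumor is labelled by a mouse number, and since the tumor line is the same in all of them, the spread is that between mice with tumors of 1 line. Time since implantation and time since the end of dosing cannot be told apart. Each mouse reached EOS at its own endpoint, so tumor age at EOS may differ between groups and cannot be told apart from treatment there. The 20 intratibial libraries held 63729005 to 75305934 counts. Mouse 20, an IL-27+cabo tumor from day 14, had the fewest counts, and the 3 tumors of that group correlated least with each other, with a lowest r per tumor of 0.957 to 0.96.

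Robo1 and Sema3f belong to families that are known from guidance of growing axons and of growing vessels. New vessels sprout under VEGF, led by tip cells that express high levels of VEGF receptors, Dll4 and guidance receptors. ROBO receptors bind SLIT proteins, and class 3 semaphorins are secreted ligands read by neuropilin and plexin receptors. Ednrb is a G protein-coupled receptor for endothelins, peptides that regulate vessel tone, and it is made by endothelial cells as well as by melanocytes and glia.

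All 8 genes are protein-coding in GENCODE M21 (GRCm38). Robo1 lies at chr16:72308306-73046095 and Rasgrp3 at chr17:75435896-75529054, both on the plus strand. Kcne3 lies at chr7:100176502-100184869 on the plus strand, where exons of the antisense gene Gm34821 overlap it. Mmp15 is at chr8:95352268-95375080 on the plus strand, and Ednrb at chr14:103814625-103844402 on the minus strand. Mest is at chr6:30723547-30748465 on the plus strand and shares exonic bases with Copg2 on the opposite strand. Klhl4 is at chrX:114474333-114560829 on the plus strand and Sema3f at chr9:107681500-107710475 on the minus strand. The libraries were stranded, but whether the counts used strand is not given in the sources used here, so Kcne3 and Mest carry that uncertainty.

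Promoter windows are shown for the 4 genes whose return after cabo passed the test in IL-27 tumors, to give the sequence at which any shared regulation could be looked for. Each runs from 250 bases before to 50 bases after a RefSeq transcript start (GRCm38.p6), in the direction of transcription, and capitals mark the motif TGGGAA of the Notch factor RBPJ on either strand. Kcne3 has 2 windows and Mest 3, and a window with the motif is shown, while those of Robo1 and Ednrb hold none. All 4 windows shown lie inside the GENCODE bounds of their gene.
Robo1, chr16:72662899-72663198, plus strand: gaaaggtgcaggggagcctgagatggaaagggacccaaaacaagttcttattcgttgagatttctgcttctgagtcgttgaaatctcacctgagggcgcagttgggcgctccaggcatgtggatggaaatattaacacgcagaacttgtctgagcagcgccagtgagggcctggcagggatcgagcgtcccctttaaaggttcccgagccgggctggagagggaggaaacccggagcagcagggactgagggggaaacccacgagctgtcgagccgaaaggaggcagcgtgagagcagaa
Kcne3, chr7:100178433-100178732, plus strand: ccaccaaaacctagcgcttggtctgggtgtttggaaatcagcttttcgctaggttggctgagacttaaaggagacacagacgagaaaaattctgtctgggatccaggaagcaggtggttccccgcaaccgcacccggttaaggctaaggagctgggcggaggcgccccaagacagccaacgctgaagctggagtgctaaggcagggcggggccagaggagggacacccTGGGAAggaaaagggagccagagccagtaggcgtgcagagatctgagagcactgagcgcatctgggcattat
Ednrb, chr14:103843652-103843951, minus strand: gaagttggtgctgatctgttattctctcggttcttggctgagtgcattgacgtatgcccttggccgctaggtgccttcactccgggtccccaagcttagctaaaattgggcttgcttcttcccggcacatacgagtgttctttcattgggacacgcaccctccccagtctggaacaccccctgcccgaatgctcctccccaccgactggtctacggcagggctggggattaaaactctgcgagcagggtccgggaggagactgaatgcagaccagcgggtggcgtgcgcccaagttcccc
Mest, chr6:30737800-30738099, plus strand: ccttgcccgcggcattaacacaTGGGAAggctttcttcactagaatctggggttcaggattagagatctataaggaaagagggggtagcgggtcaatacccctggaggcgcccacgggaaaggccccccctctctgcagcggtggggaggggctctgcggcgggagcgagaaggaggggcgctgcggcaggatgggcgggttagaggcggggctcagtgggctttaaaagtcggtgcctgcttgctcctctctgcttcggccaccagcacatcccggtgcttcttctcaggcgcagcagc
Windows were found for 7 of the 8 genes, 11 in all. TGGGAA was in a window of 3 of the 7 genes (Kcne3, Mest and Klhl4), against 28.3% of 27025 genes with windows of this length. The ETS motif CCGGAA was in 1 of the 7 (Rasgrp3), against 16.7% of genes, AGATAA of GATA factors in 1 (Klhl4), against 12.7%, and ACAATG of SOX factors in 1 (Kcne3), against 14.3%. GTAAACA of forkhead factors was in none of the 7, against 4.05%. No motif was shared by most of the genes, and these letters say nothing of which factors were bound.

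Levels were compared between genes as CPM per kilobase of exon, over the 3 control tumors of day 14. Mest was the most abundant of the 8 at 7.16 ± 1.64 (SD, n = 3), followed by Ednrb at 5.74 ± 0.454, Sema3f at 3.4 ± 0.691 and Kcne3 at 2.91 ± 1.53. Rasgrp3 had 1.88 ± 0.453 and Mmp15 1.52 ± 0.445, and the lowest were Klhl4 at 0.763 ± 0.209 and Robo1 at 0.288 ± 0.101. The neighbours Mest and Ednrb, Sema3f and Kcne3, Kcne3 and Rasgrp3, and Rasgrp3 and Mmp15 do not differ beyond their spread.

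In tumors with the control plasmid, where all 8 passed in the fit above, all 8 were lower with cabo at day 14 in every tumor, as were 13.1% of all genes. Kcne3, a small subunit that alters the gating of potassium channels and a known marker of tip cells, had 8.22, 4.33 and 2.96 CPM in control tumors and 0.158, 0.195 and 0.131 CPM in cabo tumors, where its raw counts were 9 to 14. The log2 change with cabo was -5.01 ± 0.52 (SE), followed by Mest at -3.07 ± 0.26, Klhl4 at -2.69 ± 0.44 and Robo1 at -2.60 ± 0.29. Sema3f had -2.29 ± 0.25, Ednrb -2.11 ± 0.17, Rasgrp3 -1.78 ± 0.21 and Mmp15 -1.65 ± 0.26. Of all 20402 genes in this fit 203 (0.995%) passed an adjusted p of 0.05, and the 8 genes were among them, as their choice implies.

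**Figure D1:**
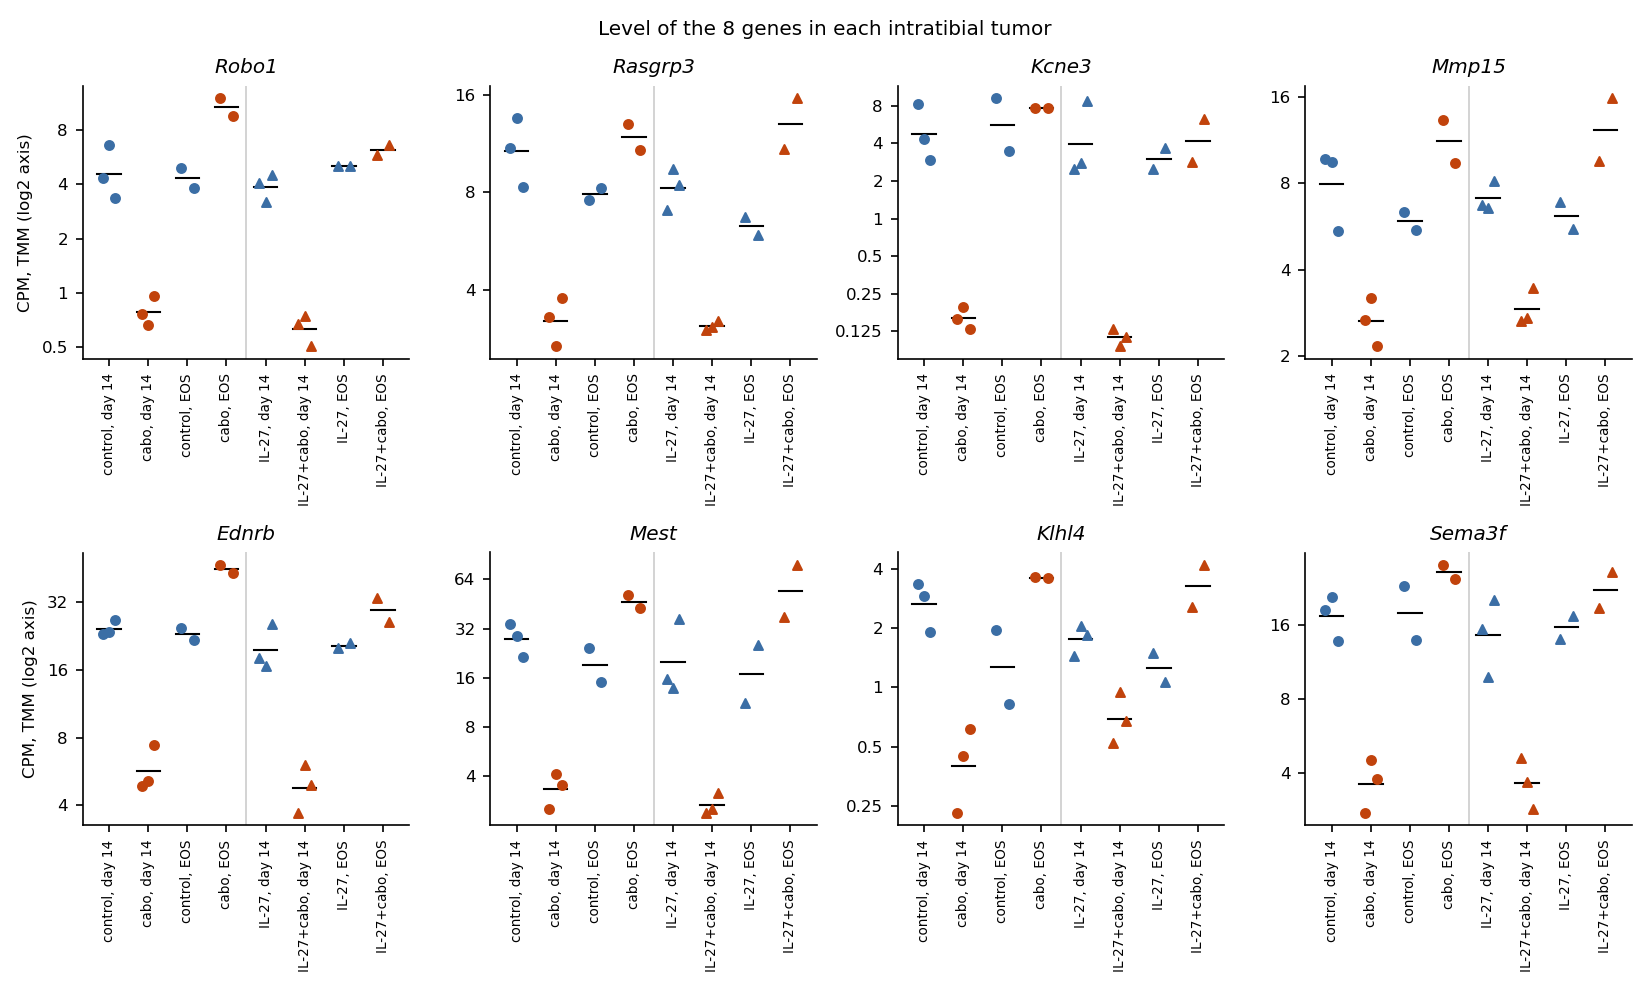
Level of each of the 8 genes in the 20 intratibial tumors, as CPM on a log2 axis, with 1 point per tumor (circles, control plasmid; triangles, IL-27 plasmid; orange, cabo; blue, vehicle) and a bar at the geometric mean. For every gene the 6 cabo tumors of day 14 lie below the other 14 tumors, except that for Klhl4 the highest of them (0.948 CPM) is above 1 EOS control tumor (0.826 CPM).

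At EOS the same genes were at or above the control level. The log2 difference of cabo against control was 1.37 ± 0.50 for Klhl4, 1.28 ± 0.33 for Robo1, 1.23 ± 0.29 for Mest, 0.94 ± 0.20 for Ednrb, 0.93 ± 0.31 for Mmp15, 0.58 ± 0.25 for Rasgrp3, 0.50 ± 0.29 for Sema3f and 0.26 ± 0.50 for Kcne3. Ednrb had 46.9 and 43.0 CPM in the EOS cabo tumors against 24.6 and 21.8 CPM in EOS control tumors. For 7 of the 8 genes both cabo tumors were above both control tumors, as for 20.8% of all genes, and Kcne3 overlapped. Between day 14 and EOS the 8 genes were higher in cabo tumors by 1.89 (Rasgrp3) to 5.56 (Kcne3) on the log2 scale, whereas in control tumors the change over the same time ran from -0.97 (Klhl4) to 0.30 (Kcne3). The difference of the cabo change between the time points was under an adjusted p of 0.05 for 26 of 20402 genes (0.127%) in these 10 tumors alone, 6 of them members, which the choice of the genes implies and which is no evidence for it.

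The 10 tumors with the IL-27 plasmid were fitted on their own over 20487 genes, all 8 members among them. The first question was whether the 8 genes are lower in IL-27+cabo tumors than in IL-27 tumors at day 14.

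Robo1 had 4.03, 3.19 and 4.47 CPM in the IL-27 tumors of day 14 and 0.674, 0.745 and 0.507 CPM in the IL-27+cabo tumors, a log2 difference of -2.60 (95% interval -3.32 to -1.89, edgeR adjusted p = 0.0554). Sema3f, the secreted ligand that acts through neuropilin 2 and repels endothelial cells, had 15.4, 9.87 and 20.2 CPM against 4.62, 3.70 and 2.87 CPM, a difference of -2.03 (-2.78 to -1.28, adjusted p = 0.197). Both groups were well apart for these 2 guidance genes.

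Ednrb had 18.1, 16.6 and 25.5 CPM in IL-27 tumors and 3.71, 6.05 and 4.93 CPM in IL-27+cabo tumors, a log2 difference of -2.04 (-2.67 to -1.40, adjusted p = 0.0866). Kcne3 had 2.51, 2.77 and 8.81 CPM against 0.131, 0.0948 and 0.113 CPM, the latter from 7 or 8 counts per library, a difference of -5.37 (-6.85 to -3.88, adjusted p = 0.0554). Kcne3 is thus 41.3-fold lower in these tumors, and its log2 difference was -4.55 without mouse 8 (edgeR adjusted p = 0.0239) and -5.69 without mouse 4 (0.0782). Without mouse 8, 2 of the 8 genes passed the test at day 14, and with all tumors 0 did. The IL-27 tumor of mouse 8 was the highest of its group for Kcne3, Ednrb, Sema3f, Mest, Mmp15 and Robo1. It also had a mean log2 CPM of 20 skeletal muscle genes of 6.16, against 0.48 and 1.57 in mice 4 and 6. The IL-27+cabo tumors of day 14 were at 5.46 to 7.13.

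Rasgrp3, an exchange factor that loads Ras and Rap proteins with GTP in response to diacylglycerol, had 7.07, 9.44 and 8.43 CPM in IL-27 tumors and 3.01, 3.07 and 3.21 CPM in IL-27+cabo tumors, a log2 difference of -1.43 (-2.03 to -0.83, adjusted p = 0.362). Mmp15, a membrane-type matrix metalloproteinase, had 6.72, 6.58 and 8.17 CPM against 2.64, 2.71 and 3.44 CPM, a difference of -1.29 (-1.96 to -0.63, adjusted p = 0.527). With that of Klhl4 these were the smallest differences, though neither gene's groups overlapped.

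Mest, an imprinted gene read from the paternal copy and coding for a hydrolase-like protein, had 15.7, 13.9 and 36.6 CPM in IL-27 tumors and 2.40, 2.55 and 3.18 CPM in IL-27+cabo tumors, a log2 difference of -3.03 (-4.14 to -1.91, adjusted p = 0.197). Klhl4, an X-linked member of the Kelch-like proteins, many of which hand substrates to cullin 3 ubiquitin ligases, had 1.44, 2.06 and 1.85 CPM against 0.524, 0.948 and 0.676 CPM. Its difference was -1.32 (-2.22 to -0.41, adjusted p = 0.675), against -2.69 on the control plasmid. Whether the change of Klhl4 differs between plasmids was not tested, since these values were open to the choice of the genes.

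At the threshold of an adjusted p of 0.05, edgeR called 0 of the 8 genes and 3 of 20487 genes (0.0146%) at day 14 in IL-27 tumors. The 8 genes ranked 4 to 263 by p, and 8 of 8 had an unadjusted p under 0.05, against 6.69% of all genes. In 8 of 8 every IL-27+cabo tumor was below every IL-27 tumor, against 5.51% of all genes. Their median log2 difference was -2.03, against 0.07 for all genes. DESeq2 called 7 of the 8 (all but Klhl4, adjusted p = 0.0921) and 203 genes (0.85%), and the edgeR fit over all 20 tumors called 6 of the 8 and 47 genes (0.218%). Without mouse 8, edgeR called 2 of the 8 (Robo1 and Kcne3) and 40 genes.

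**Figure D2:**
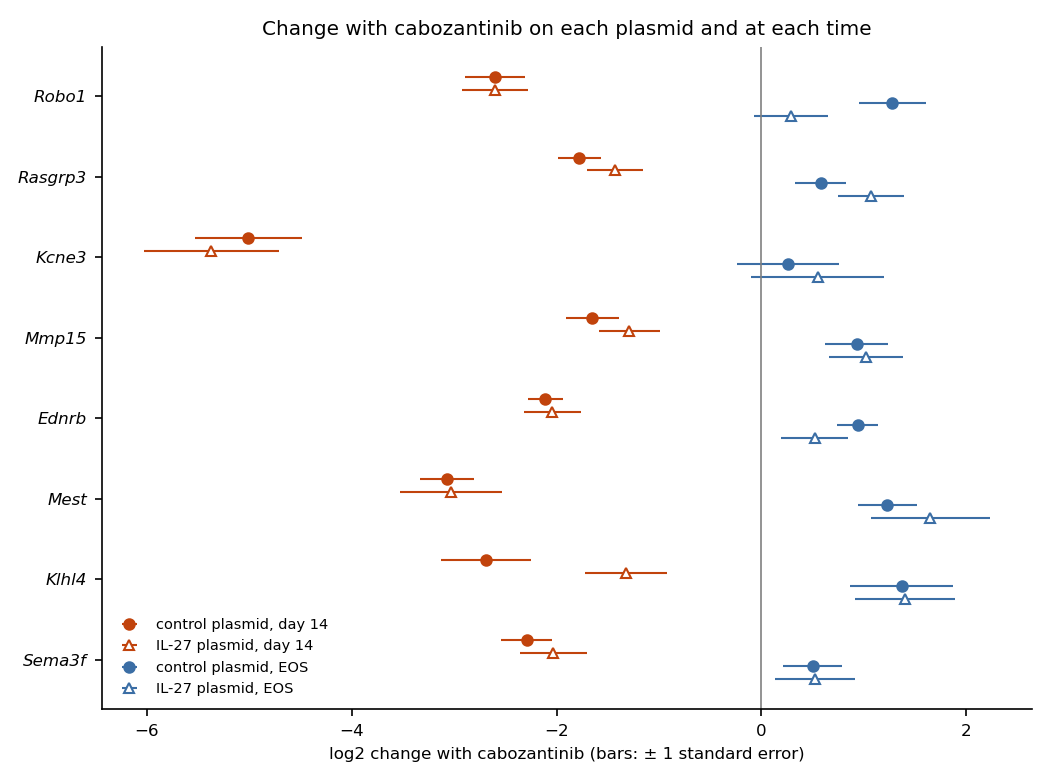
Log2 change with cabo for each gene, with bars of 1 standard error, at day 14 (orange) and EOS (blue) in tumors with the control plasmid (filled circles, cabo against control) and the IL-27 plasmid (open triangles, IL-27+cabo against IL-27). Every day 14 value is below 0, from -5.37 to -1.29, and every EOS value is above 0, from 0.26 to 1.65.

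At EOS the estimates had the opposite sign. Mest had 37.4 and 78.3 CPM in IL-27+cabo tumors against 11.2 and 25.5 CPM in IL-27 tumors, a log2 difference of 1.65 (0.35 to 2.94, adjusted p = 0.831) that was 1.02 without mouse 28 (IL-27+cabo) and 2.36 without mouse 12 (IL-27). Klhl4 was at 2.56 and 4.21 CPM against 1.49 and 1.07 CPM (1.40, 0.30 to 2.49, adjusted p = 0.831), and Rasgrp3 at 10.9 and 15.6 CPM against 6.70 and 5.91 CPM (1.07, 0.34 to 1.79, adjusted p = 0.731). Mmp15 had 9.55 and 15.8 CPM against 6.86 and 5.55 CPM, a difference of 1.02 (0.22 to 1.83, adjusted p = 0.832). In these 4 genes the interval lies above 0, although none passed the adjusted threshold.

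The other 4 lay closer to the IL-27 tumors, with log2 differences of 0.55 for Kcne3 (-0.91 to 2.01), 0.52 for Ednrb (-0.23 to 1.27), 0.52 for Sema3f (-0.37 to 1.40) and 0.29 for Robo1 (-0.53 to 1.10). Their intervals include 0. edgeR called 0 of the 8 and 0 of 20487 genes, while 4 of the 8 had an unadjusted p under 0.05, against 1052 genes (5.13%). DESeq2 called 0 of the 8 and 212 genes. The 2 IL-27+cabo tumors were above the 2 IL-27 tumors for 7 of the 8 (not Kcne3), and this held for 22.6% of all genes.

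Among the comparisons of intratibial tumors on the IL-27 plasmid, members passed the edgeR test in the return from day 14 to EOS within IL-27+cabo tumors. Robo1 rose from 0.674, 0.745 and 0.507 CPM to 5.78 and 6.54 CPM, a log2 change of 3.26 ± 0.34 (SE, edgeR adjusted p = 0.0172). Kcne3 rose from 0.131, 0.0948 and 0.113 CPM to 2.84 and 6.26 CPM (5.31 ± 0.68, adjusted p = 0.0381), and Mest to 37.4 and 78.3 CPM (4.41 ± 0.55, adjusted p = 0.0331). Ednrb rose from 3.71, 6.05 and 4.93 CPM to 33.4 and 26.1 CPM (2.60 ± 0.31, adjusted p = 0.0313). At EOS Robo1, Ednrb and Mest lay above both IL-27 tumors without cabo, and Kcne3 overlapped with them.

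The remaining 4 genes missed the threshold. Sema3f had 18.8 and 26.4 CPM at EOS (2.60 ± 0.36, adjusted p = 0.0529), Rasgrp3 10.9 and 15.6 CPM (2.09 ± 0.29, adjusted p = 0.0529), Mmp15 9.55 and 15.8 CPM (2.11 ± 0.32, adjusted p = 0.0778) and Klhl4 2.56 and 4.21 CPM (2.23 ± 0.44, adjusted p = 0.229). Thus 4 of 8 passed and were higher, against 10 of 20487 genes (0.0488%), and for 8 of 8 both EOS tumors were above all 3 tumors of day 14, against 10.8% of all genes. Without mouse 28 the change of Kcne3 was 4.64 and that of Mest 3.79 (edgeR adjusted p = 0.222 for both). The calls rest on single tumors of the fit. Without mouse 22 or 24 (IL-27+cabo, day 14), 16 or 28 (IL-27+cabo, EOS), 4 (IL-27, day 14), or 10 or 12 (IL-27, EOS) 0 of the 8 were called, without mouse 6 (IL-27, day 14) 1 was, and without mouse 20 or mouse 8 the count was 4. Those 4 were the same genes without mouse 8, but without mouse 20 they were Robo1, Ednrb, Rasgrp3 and Sema3f.

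In IL-27 tumors without cabo no such change over time was measured. The log2 change from day 14 to EOS ran from -0.60 (Kcne3, 95% interval -1.96 to 0.75) to 0.37 (Robo1, -0.37 to 1.11), edgeR called 0 of the 8 and 0 of 20487 genes, with 499 genes and 0 of the 8 at an unadjusted p under 0.05, and DESeq2 called 0 of the 8 and 46 genes. The test of the difference itself, the cabo change at EOS minus that at day 14, gave 5.92 ± 0.94 for Kcne3, 4.67 ± 0.77 for Mest, 2.89 ± 0.48 for Robo1, 2.71 ± 0.63 for Klhl4, 2.56 ± 0.44 for Ednrb, 2.54 ± 0.52 for Sema3f, 2.49 ± 0.42 for Rasgrp3 and 2.31 ± 0.47 for Mmp15. The value of Kcne3 was 5.09 without mouse 8 and 5.25 without mouse 28, and that of Mest 4.05 without mouse 28 and 5.40 without mouse 12. The 8 ranked 7 to 43 among 20487 genes and 8 of 8 had an unadjusted p under 0.05, against 573 genes (2.8%). edgeR called 0 genes in all, with adjusted p from 0.30 for Kcne3 to 0.847 for Klhl4, and DESeq2 called 67 genes, 8 of the 8 among them.

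The families of these genes were measured from lists of related genes, given without the 8 themselves. Of 9 other tested genes of SLIT and ROBO signaling, none was called by edgeR at day 14 or between day 14 and EOS in IL-27 tumors, and their medians were -0.36 and 0.16. The nearest relative by direction was Robo4, the endothelial ROBO receptor, with a log2 difference of -1.22 ± 0.28 at day 14 (adjusted p = 0.527) and 2.20 ± 0.31 from day 14 to EOS in IL-27+cabo tumors (adjusted p = 0.0529). The ligands Slit1 and Slit3 had 1.33 ± 0.60 and 1.35 ± 0.37 at day 14. Among 13 other class 3 semaphorins, neuropilins and plexins none was called, with medians of -0.27 and 0.25, and the values furthest from 0 at day 14 were those of Sema3g (1.39 ± 0.54) and Nrp1 (0.77 ± 0.32).

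Other families likewise held values of both signs. In the endothelin axis 0 of 5 were called, and the ligand Edn1 had 2.64 ± 1.02 at day 14, opposite to the receptor Ednrb, while the other receptor, Ednra, singled out after its values were seen, had -0.26 ± 0.38. Among 7 KCNE subunits and channel partners none was called, and Kcnq1, the channel that KCNE3 is best known to modify, had -1.20 ± 0.25 (adjusted p = 0.433). Of 10 RasGRP factors and Ras regulators none was called, and Rasgrp4 was at 2.28 ± 0.64 and Rasgrp1 at 0.48 ± 0.50. None of 10 membrane-type MMPs and TIMPs was called, with a median of 0.10.

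Of 14 genes of the imprinted network none was called in these tumors, with medians of 0.01 at day 14 and -0.43 from day 14 to EOS. Grb10, an imprinted adaptor that restrains growth factor receptors, came closest to the pattern of Mest, with -0.88 ± 0.34 and then 2.22 ± 0.38 (adjusted p = 0.137). Of 15 Kelch-like proteins none was called. The largest were Klhl40 (3.09 ± 1.11) and Klhl41 (1.82 ± 1.21), both skeletal muscle proteins.

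**Figure D3:**
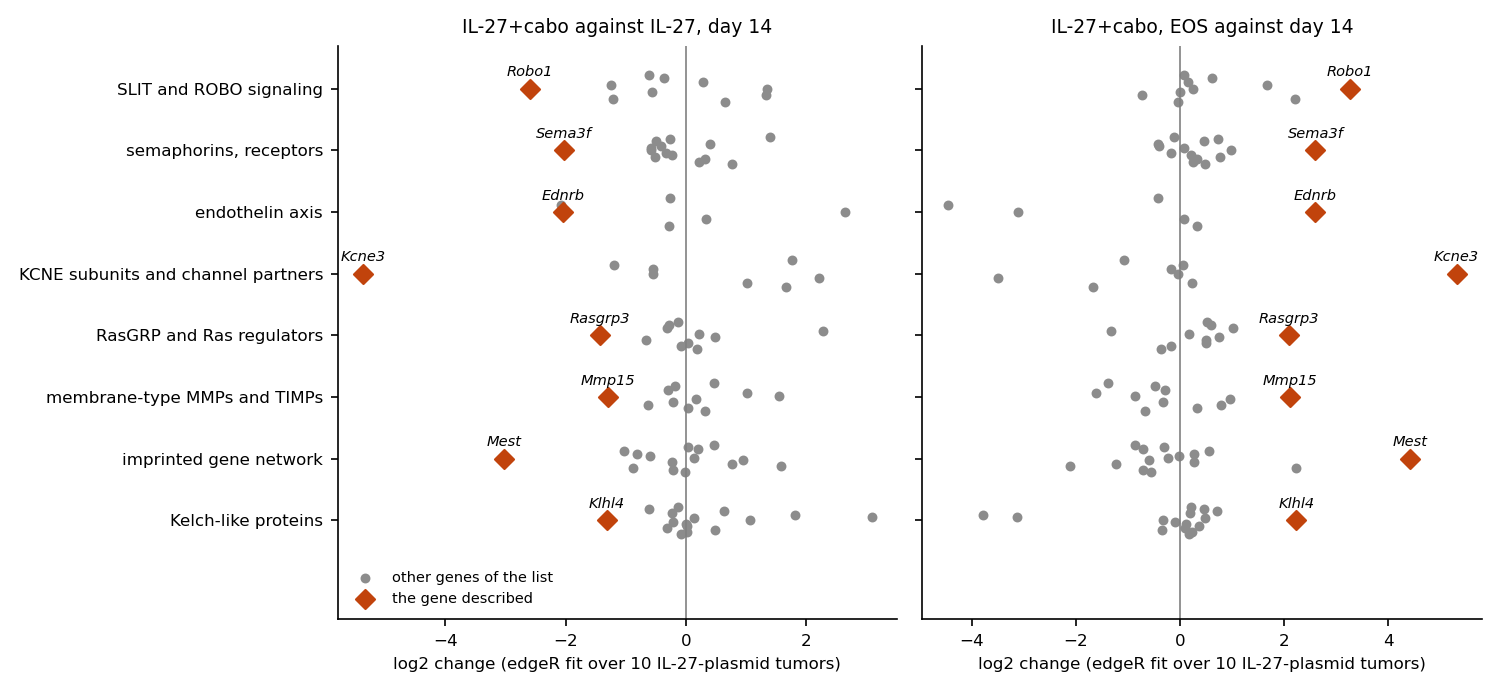
Log2 change of each tested gene of 8 family lists (grey) and of the gene described (orange diamond, named) in tumors with the IL-27 plasmid, for IL-27+cabo against IL-27 at day 14 (left) and for IL-27+cabo tumors from day 14 to EOS (right). The orange diamonds lie at -5.37 to -1.29 on the left and at 2.09 to 5.31 on the right, and the grey points lie on both sides of 0 in each list.

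Vessel markers were measured beside the 8 genes. In bulk tumor RNA, fewer cells of a type and less RNA per cell cannot be told apart, and this holds for each value here. Of 16 endothelial cell markers, all tested and none at 0, edgeR called 0 at day 14 in IL-27 tumors while 9 had an unadjusted p under 0.05, 14 had a negative difference and the median was -0.88. Their summed level was 182 to 229 CPM in IL-27+cabo tumors of day 14 and 322 to 392 CPM in IL-27 tumors, then 455 to 607 CPM in IL-27+cabo tumors of EOS and 345 to 354 CPM in IL-27 tumors. From day 14 to EOS 16 of 16 were positive in IL-27+cabo tumors with a median of 1.57. Of these edgeR called 1, Emcn, an endothelial sialomucin (2.82 ± 0.34, adjusted p = 0.0324). In cabo tumors on the control plasmid edgeR called Emcn, Cldn5, Tie1, Egfl7, Erg and Flt1 over that time, against 0.539% of all genes. All of them rose, by 1.32 ± 0.19 (Egfl7) to 3.94 ± 0.27 (Cldn5). Of the markers not called there, only Vwf was negative (-0.28 ± 0.63).

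The levels were also taken against those of the endothelial markers, single ones of which had day 14 differences from -2.36 (Cldn5) to 0.16 (Ptprb). Relative to the mean log2 CPM of those markers in the same tumor, Kcne3 was at -1.93 ± 0.85 (SD, n = 3) in IL-27 tumors of day 14 and -5.80 ± 0.22 in IL-27+cabo tumors, and at EOS at -2.18 ± 0.35 and -2.49 ± 0.56 (n = 2). Mest was at 0.40 ± 0.60 and -1.53 ± 0.13, and at EOS at 0.29 ± 0.80 and 1.18 ± 0.51. Robo1 was at -1.96 ± 0.11 and -3.56 ± 0.36, and at EOS it was lower with cabo on this scale, at -1.95 ± 0.12 against -1.45 ± 0.03. Ednrb was at 0.38 ± 0.16 and -0.70 ± 0.34, and at EOS at 0.57 ± 0.02 and 0.31 ± 0.49, and Sema3f was at -0.06 ± 0.36 and -1.09 ± 0.42, and at EOS at 0.18 ± 0.18 and -0.09 ± 0.10. Thus relative to endothelial markers the EOS means of Robo1, Kcne3, Ednrb and Sema3f were lower in IL-27+cabo than in IL-27 tumors. This is opposite in sign to their difference in CPM. On the control plasmid at EOS Robo1 was higher with cabo (-1.11 ± 0 against -1.82 ± 0.07), as was Ednrb (0.97 ± 0.14 against 0.60 ± 0.21). There Kcne3 was at -1.58 ± 0.23 with cabo and -1.43 ± 0.65 without, and Sema3f at 0.20 ± 0.09 and 0.22 ± 0.17 (SD, n = 2). Smaller shifts were left for Rasgrp3, from -0.87 ± 0.30 to -1.33 ± 0.04, for Mmp15, from -1.08 ± 0.05 to -1.42 ± 0.12, and for Klhl4, from -3.08 ± 0.33 to -3.44 ± 0.41. With the endothelial score as a covariate, none of the 8 had an unadjusted p under 0.05 at day 14, with standard errors of 0.88 to 1.37, and Mest and Mmp15 turned to 0.74 and 0.20. The score separates the IL-27 and IL-27+cabo tumors of day 14 completely, so endothelial content and cabo cannot be told apart in that fit.

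**Figure D4:**
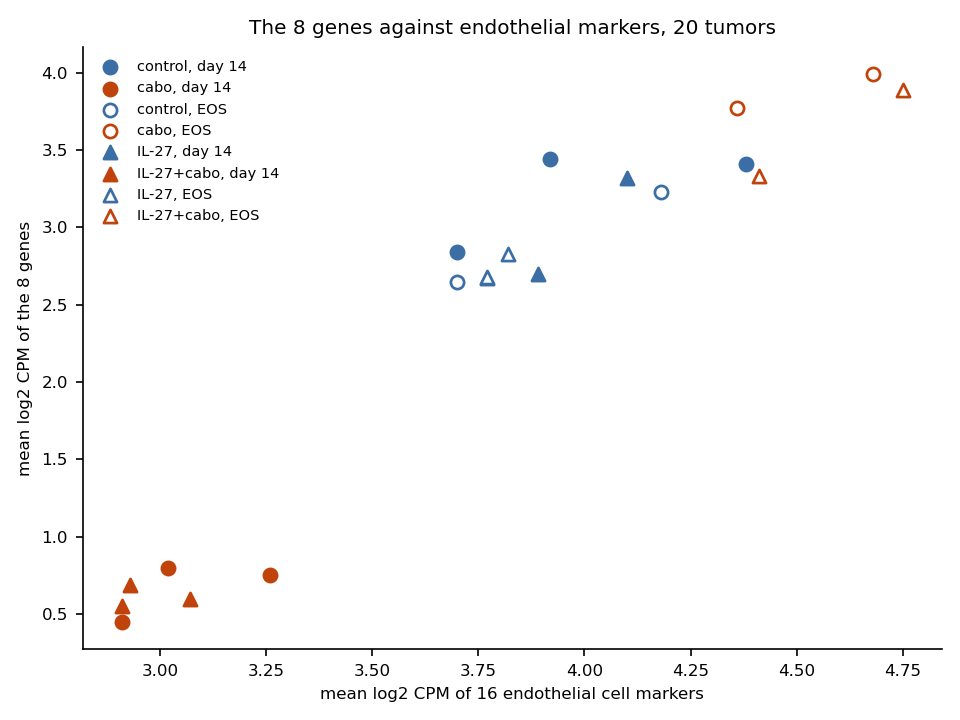
Mean log2 CPM of the 8 genes against the mean log2 CPM of 16 endothelial cell markers in the 20 intratibial tumors (circles, control plasmid; triangles, IL-27 plasmid; orange, cabo; blue, vehicle; filled, day 14; open, EOS). The 6 cabo tumors of day 14 lie at 0.45 to 0.80 on the vertical axis and 2.91 to 3.26 on the horizontal one, apart from the other 14 tumors, which lie at 2.65 to 3.99 and 3.70 to 4.75.

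Tip cells lead vessel sprouts, and Kcne3 is among their markers. Of 16 tip cell markers other than Kcne3, 3 fell at day 14 in IL-27+cabo against IL-27 tumors, which are all the genes edgeR called there. These were Esm1, a proteoglycan of tip cells (-4.68 ± 0.46, adjusted p = 0.0131), Dll4, the Notch ligand that limits tip cell number (-3.45 ± 0.31, adjusted p = 0.0131), and Flt4, the receptor for VEGF-C (-2.99 ± 0.29, adjusted p = 0.0131). Their list had a median of -1.27 with 15 of 16 negative, and the same 3 genes rose from day 14 to EOS in IL-27+cabo tumors, by 4.81 ± 0.48, 4.12 ± 0.34 and 3.58 ± 0.31. The day 14 count of 3 fell to 0 without mouse 6, 12, 16, 22, 24 or 28 and was 40 without mouse 8. Dll4 and Flt4 were also among the 17 genes of the selecting fit, which included these tumors. Lymphatic markers were at a median of -1.74 at day 14 with 0 of 6 called.

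Over the 20 intratibial tumors the 8 genes followed each other closely, as a description of genes chosen for 1 pattern. Pearson's r of log2 CPM between pairs ran from 0.837 (Kcne3 and Klhl4) to 0.975 (Robo1 and Ednrb), with a median of 0.925 over 28 pairs. The non-members most like their mean were Emcn (r = 0.988), Afap1l1 (0.98), 4930502E18Rik (0.975), Ephb1 (0.972), Dll4 (0.968), Pcdh12 (0.96), Flt4 (0.957), Tmem255a (0.953), Mcam (0.952) and She (0.952). Of these, Emcn, 4930502E18Rik, Ephb1, Dll4, Pcdh12, Flt4 and Tmem255a were among the 17 genes of the selecting fit, so their likeness in part restates the selection. Several of the genes, such as Pcdh12, a vascular cadherin, are known from endothelium, and Ephb1 is an ephrin receptor. The 6 cabo tumors of day 14 stand apart from the other 14, and within the 14 alone r was 0.955 for Emcn, 0.948 for Mcam, 0.727 for Dll4 and 0.614 for Flt4. Within the 6 it was 0.551 for Emcn, -0.345 for Tmem255a and -0.658 for Ephb1, the last from 11 to 20 counts per tumor.

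By single gene, Robo1 and Ednrb were most like each other (r = 0.975 over 20 tumors), Rasgrp3, Mest and Klhl4 were most like Emcn (0.958, 0.976 and 0.937), and Kcne3 and Sema3f were most like 4930502E18Rik (0.986 and 0.976), which had 0 counts in all 6 cabo tumors of day 14 and 24 to 140 counts in the other 14, within which r was 0.816 and 0.838. Mmp15 was most like Afap1l1 (0.955). Emcn itself had 15.3 ± 4.41 CPM (SD, n = 3) in IL-27 tumors of day 14, 3.59 ± 0.424 CPM in IL-27+cabo tumors, and 11.2 ± 1.22 and 25.4 ± 9.64 CPM (n = 2) in the same groups at EOS.

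The cabo tumors of the 2 plasmids can be set side by side by their levels. Robo1 had 11.9 and 9.47 CPM in cabo tumors of EOS and 5.78 and 6.54 CPM in IL-27+cabo tumors, and Ednrb had 46.9 and 43.0 CPM against 33.4 and 26.1 CPM. Kcne3 was at 7.64 and 7.63 against 2.84 and 6.26 CPM. For these 3 genes both cabo tumors were the higher, which held for 16.1% of all genes, whereas Mest (51.1 and 42.6 against 37.4 and 78.3 CPM), Rasgrp3, Mmp15, Klhl4 and Sema3f overlapped. At day 14 the ranges of cabo and IL-27+cabo tumors overlapped for 7 of the 8 genes, and those of Kcne3 met at 0.131 CPM. These are levels only and were not tested, since these tumors were open to the choice of the genes.

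Markers of other cell types also differed in level between these tumors. The summed level of 20 skeletal muscle genes was 1890 to 5470 CPM in IL-27+cabo tumors of day 14, 1440 to 2180 CPM in cabo tumors, 74.0 to 2450 CPM in IL-27 tumors and 48.1 to 226 CPM in control tumors, and Myh2, Myh7, Tnnc2, Pvalb, Mb and Myl1 were at 0 in some tumors. In IL-27+cabo against IL-27 tumors of day 14, 20 of 20 were positive and 0 were called, with a median of 2.29. With the muscle score as a covariate, the day 14 differences of the 8 genes were -6.09 (Kcne3) to -1.25 (Klhl4) and without it -5.37 to -1.29, and the count of members called from day 14 to EOS went from 4 to 0, while the log2 changes of these 4 were 2.99 ± 0.42 (Ednrb) to 6.56 ± 0.78 (Kcne3), and 2.60 to 5.31 without it. Leukocyte markers had a median of 0.84 at day 14 in IL-27+cabo against IL-27 tumors and fibroblast markers 0.52, with none called in either list. From day 14 to EOS in IL-27+cabo tumors the medians were -0.57 and -0.32, again with none called, and the mean log2 CPM of leukocyte markers was 2.83 ± 0.16 (SD, n = 3) and then 1.88 ± 0.42 (n = 2). In cabo tumors it was 3.01 ± 0.27 and then 1.40 ± 0.04. There edgeR called 110 genes (0.539%) from day 14 to EOS, and Cd3e of T cells (-3.33 ± 0.35, adjusted p = 0.00236) and the fibroblast collagen Col3a1 (-0.87 ± 0.14, adjusted p = 0.0244) fell. Cd3e also fell in control tumors over that time (-2.51 ± 0.31, adjusted p = 0.0259), where 113 genes (0.554%) were called. Of 10 pericyte and mural markers 2 rose in cabo tumors from day 14 to EOS, Kcnj8 (3.21 ± 0.34, adjusted p = 0.00236) and Mcam (2.09 ± 0.35, adjusted p = 0.0356), and Kcnj8 had fallen with cabo at day 14 (-2.33 ± 0.31, adjusted p = 0.0101). In IL-27+cabo tumors these 2 had 2.10 ± 0.47 (adjusted p = 0.336) and 2.70 ± 0.38 (adjusted p = 0.0529) over the same time, with 0 of the 10 called. None of the other mural markers was called in cabo tumors. There Rgs5 (-0.70 ± 0.33), Des (-1.18 ± 1.12), Notch3 (-0.63 ± 0.31) and Myh11 (-1.06 ± 0.53) were negative. Pdgfrb, Cspg4, Acta2 and Abcc9 ran from 0.01 ± 0.53 (Acta2) to 1.65 ± 0.34 (Abcc9).

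Marrow and erythroid markers, of which 8 of 10 passed the count filter on the control plasmid and 6 on the IL-27 plasmid, summed over those 8 to 53.7 to 239 CPM in control tumors of day 14 and 14.5 to 29.3 CPM in cabo tumors, and to 77.4 to 84.4 CPM in cabo tumors of EOS. On the IL-27 plasmid they were at 62.6 to 85.7 CPM at day 14 and, with cabo, at 15.1 to 169 CPM, then at 57.5 to 82.7 CPM with cabo at EOS. Osteoclast markers (8 of 8) were at 195 to 284 CPM in IL-27+cabo tumors of day 14 and 593 to 1070 CPM at EOS, and in IL-27 tumors at 211 to 320 and 694 to 790 CPM. In the comparisons of intratibial tumors edgeR called 0 genes of either list, with 2 marrow markers at an unadjusted p under 0.05 and lower in IL-27+cabo than IL-27 tumors of day 14, and 7 osteoclast markers higher at EOS than at day 14 with and without cabo on the IL-27 plasmid, against 5.77% and 2.44% of all genes at such a p in either direction. On the control plasmid 6 of 8 marrow markers were at an unadjusted p under 0.05 and lower with cabo at day 14 (17.5% of all genes were at such a p), and from day 14 to EOS in cabo tumors 5 (4 globin genes and Alas2) were so and higher while Ngp was lower (-7.14 ± 2.06, 10.5% of all genes). At EOS 5 osteoclast markers, Acp5, Ctsk, Calcr, Atp6v0d2 and Mmp9, were at an unadjusted p under 0.05 and lower in cabo than in control tumors, with -3.14 to -1.08, against 12.2% of all genes. In subcutaneous tumors 4 of 8 marrow markers were called and higher with IL-27, as was 1 of 7 osteoclast markers, with 1 lower. The part of these cell types in the results was not tested.

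The IL-27 plasmid was compared with the control plasmid in the subcutaneous tumors, without cabo. Ednrb had 74.4 and 282 CPM in IL-27 tumors and 30.5 and 31.4 CPM in control tumors, a log2 difference of 2.53 ± 0.62 (adjusted p = 0.0299) that was 1.26 without IL-27 tumor 2 (adjusted p = 0.202) and 3.18 without IL-27 tumor 1, and Mest had 103 and 141 CPM against 36.0 and 53.7 CPM (1.45 ± 0.36, adjusted p = 0.0333). Mmp15 had 1.76 and 1.64 CPM against 11.7 and 10.4 CPM (-2.70 ± 0.44, adjusted p = 0.00668), and Sema3f had 1.46 and 3.92 CPM against 15.7 and 11.2 CPM (-2.32 ± 0.58, adjusted p = 0.0333, range -3.21 to -1.78 on leaving out 1 tumor). Thus 4 of the 8 passed, 2 in each direction, against 3880 of 19360 genes (20%), of which 682 were higher (3.52% of all) and 3198 lower (16.5%). DESeq2 called 6 of the 8 and 29.3% of genes.

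The other 4 did not pass. Rasgrp3 had a log2 difference of 1.44 ± 0.43 (adjusted p = 0.056), Klhl4 1.35 ± 0.56 (adjusted p = 0.137), Robo1 0.31 ± 0.63 (adjusted p = 0.767) and Kcne3 -0.24 ± 0.62 (adjusted p = 0.819). Klhl4 ran from 0.82 to 2.19 on leaving out 1 tumor and passed without control tumor 2 (adjusted p = 0.0439). The subcutaneous comparison followed the GC content of genes, with a median of 0.85 in genes under 44.5% GC and -2.05 in genes over 53.9%. The longest transcripts of Mmp15 and Sema3f have 59.6% and 58.4% GC, and those of Ednrb and Mest 43.9% and 47.4%. Once the dependence on GC and length of the longest transcript was taken out, 0 of the 8 were called. Mmp15 and Sema3f were then at 0.19 and 0.35, while Ednrb was at 1.72 ± 0.58 and Mest at 1.03 ± 0.29. Each fit without 1 of these tumors leaves 1 tumor in a group. Over those fits Mest ran from 1.19 to 1.73 and Mmp15 from -2.82 to -2.61. At day 14 in IL-27 tumors the genes of lowest and highest GC had medians of -0.03 and 0.20.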

How the data were processed

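Poly(A) RNA of 24 tumors was sequenced from stranded TruSeq libraries, and the table deposited by the authors holds raw counts, in whole numbers, by Ensembl identifier. The submitters' processing notes name FastQC, HISAT2, StringTie and DESeq2, and as genome build GRCh38, a human one, although the identifiers are of mouse genes. The mouse build, annotation, counting program and strand setting are not given in the sources used here. Of the low values (1 to 20), 30.4 to 35.5% per library were multiples of 4, so counts divided by 4 were tried as an alternative. Of 55401 identifiers, 55141 were matched to GENCODE M21 for symbols. Totals ran from 63729005 to 83782258 counts.

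Tests used edgeR 4.0.16 under R 4.3.3 (filterByExpr, TMM, quasi-likelihood test, two-sided, Benjamini-Hochberg adjustment over all genes tested, threshold 0.05), checked on simulated data. The 10 IL-27-plasmid, the 10 control-plasmid and the 4 subcutaneous tumors were fitted separately, each with 1 mean per group. DESeq2 1.42.0, RLE normalization, no filter, fits over other sets of tumors, scores of muscle and endothelial markers as covariates, removal of a trend in GC content and length, and leaving out each tumor were alternatives. The 8 genes and the 22 gene lists (9 pathway, 13 cell type) were chosen with earlier results of these data known. Of 240 list symbols 1 was not found. Beside the 8 genes, the rule was to name up to 4 genes of a list, with the largest absolute log2 change among those called, else among those tested. The 10 genes most like the 8, and the gene most like each, were named too. Some list genes were named outside this rule with their values seen, such as Ednra, Ptprb and the named osteoclast and muscle genes, or, like Grb10, for likeness to a member. Promoter sequences are RefSeq's (GRCm38.p6). Nothing but mouse or replicate numbers tells tumors of a group apart, so p-values measure the spread between these tumors.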

Additional observations from a re-analysis of the deposited data

Results flagged for a closer look

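For 7 of the 8 genes every IL-27+cabo tumor was below every IL-27 tumor at day 14 and above every one at EOS (5.51% of all genes at day 14, 22.6% at EOS and 0.864% at both). These are positions of tumors only, since at EOS 0 of the 8 passed the test and the 95% intervals of Robo1, Ednrb and Sema3f include 0. The difference of the log2 change, EOS minus day 14, was 2.89 for Robo1, 2.49 for Rasgrp3, 2.31 for Mmp15, 2.56 for Ednrb, 4.67 for Mest, 2.71 for Klhl4 and 2.54 for Sema3f. In edgeR's quasi-likelihood test of this difference none passed, with adjusted p of 0.304 for Robo1, Rasgrp3, Ednrb and Mest, 0.562 for Mmp15 and Sema3f, and 0.847 for Klhl4.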

How the results depend on the processing

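At day 14 in IL-27 tumors, DESeq2 called 7 of the 8 genes and 203 genes in all, the fit over 20 tumors 6 and 47, and removal of the trend in GC content and length 2 and 7, while the count of all genes was 0 with only the groups compared and with the muscle or endothelial covariate. Leaving out 1 tumor gave 0 to 2 of the 8 and 0 to 40 genes. At EOS, DESeq2 called 212 genes, the fit over 20 tumors 4, and leaving out 1 tumor 0 to 4. For the difference between the times, DESeq2 called 8 of the 8 and 67 genes, the fit over 20 tumors 5 and 19, GC and length removal 1 gene, and leaving out 1 tumor 0 to 3 genes. From day 14 to EOS in IL-27+cabo tumors, DESeq2 called 8 and 273, the fit over 20 tumors 8 and 71, and the fit of only the groups compared and those with either covariate 0 and 0. Counts divided by 4 gave 20 genes there, GC and length removal 23, and leaving out 1 tumor 0 to 4 of the 8 and 0 to 29 genes. Over time in IL-27 tumors DESeq2 called 46 genes, and leaving out 1 tumor gave 0 to 4.

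Directions turned mainly with the endothelial covariate, which gave Mmp15 0.20 and Mest 0.74 at day 14. At EOS it gave Robo1 -0.11, Kcne3 -2.68, Mmp15 -0.24, Mest -1.37 and Sema3f -0.68. For the difference it gave Kcne3 -1.38, Mmp15 -0.44, Mest -2.11 and Sema3f -0.18, from day 14 to EOS in IL-27+cabo tumors Kcne3 -1.29, Mmp15 -0.43 and Mest -1.79, and over time in IL-27 tumors Kcne3 0.09, Mmp15 0.00 and Mest 0.31. The muscle covariate gave Kcne3 -0.05 at EOS, and Kcne3 0.51 and Mest 0.42 over time in IL-27 tumors. Leaving out 1 tumor turned Kcne3 at EOS (-0.12 without mouse 28, range to 1.01), and over time in IL-27 tumors it gave ranges of -0.08 to 0.23 for Ednrb, -0.17 to 0.30 for Sema3f, -0.91 to 0.21 for Kcne3 and -0.98 to 0.30 for Mest. The cause was not tested.

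In subcutaneous tumors DESeq2 called 6 of the 8 and 5977 genes, no filter left 1 of the 8, and GC and length removal 0 of the 8 and 1612 genes, with Mmp15 at 0.19 and Sema3f at 0.35. Leaving out 1 tumor gave 1 to 3 of the 8 and 2093 to 5200 genes, Kcne3 at -0.90 to 0.92 and Robo1 at -0.43 to 0.91. Replicate numbers 1 and 2 are shared there, and same-numbered tumors deviated together weakly (r = 0.031 over genes, 2 pairs). With 2 tumors a group the deviations of a group mirror each other, so the pairs are not separate measurements. A low r over all genes does not show that the tumors were unpaired, and whether they were is not known. With the replicate block 6 of the 8 and 4248 genes were called, and with the block and GC and length removal 1 and 2545, with Mmp15 at 0.20 and Sema3f at 0.21. With 2 or 3 tumors a group, and 7 to 14 counts of Kcne3 in cabo tumors of day 14, the size of its change is the least certain.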
